A study of Mus musculus with 33 samples.

Results

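The enzymes that write, copy and oxidize DNA methylation were followed at the RNA level while paraxial mesoderm cells (PM) derived from mouse embryonic stem cells were driven toward a tendon or a fibrocartilage fate. The 8 genes were taken by symbol, Dnmt1, Uhrf1, Dnmt3a, Dnmt3b, Dnmt3l, Tet1, Tet2 and Tet3, and all 8 were among the 17120 genes of the count table and entered every test. The stem cells came from blastocysts of ScxGFP mice, which carry a reporter of the tendon transcription factor Scleraxis, and every group shares this background. They had been aggregated into embryoid bodies with the BMP inhibitor LDN-193189. A paraxial mesoderm phase with LDN-193189 and the Wnt activator CHIR followed. The methods describe the CHIR phase without a retinoid ligand and also, as an enhanced form, with AGN 193109 or all-trans retinoic acid added. They do not state which form gave these libraries. Whether PM had already met AGN is therefore not known. PM (D0, embryoid bodies) was then plated as monolayers with CD1530, which activates the gamma form of the retinoic acid receptor, or with AGN 193109 (AGN), an inverse agonist of all retinoic acid receptors. Both media also held TGFβ1, the Smoothened agonist SAG and FGF2, so that the conditions differed in the ligand. Cells were taken after 0.25, 0.75, 1.5, 2.5 and 4 days (D0.25 to D4), which with PM gives 11 groups of 3 libraries. D0 here is the end of the CHIR phase, whereas the paper elsewhere uses D0 for naive stem cells. The study used several ScxGFP stem cell lines, and which line gave which replicate is not stated in the sources used here. The p-values therefore measure the spread between these 3 cultures a group.

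Cytosine methylation at CG dinucleotides is copied onto the new DNA strand by Dnmt1, which Uhrf1 brings to hemimethylated sites during replication. Dnmt3a and Dnmt3b place methyl groups on unmethylated sites, and Dnmt3l, which has no catalytic activity of its own, stimulates both. Tet1, Tet2 and Tet3 oxidize 5-methylcytosine, and the oxidized bases are lost by dilution at replication or excised by repair. Dnmt3b, Dnmt3l and Tet1 are known for high expression in pluripotent cells, and Tet3 for expression in differentiated cells. RNA levels, not protein or methylation, were measured here.

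All 8 genes have a RefSeq promoter sequence (GRCm38.p6), with 15 annotated start windows between them. The 250 bases before a start are shown for 3 genes on which the comparison of the ligands turns: Dnmt3b, which differed most, its partner Dnmt3l, which differed in the same direction, and Tet2, which changed direction. Capitals mark CG dinucleotides, the sites on which these enzymes act. The windows lie at chr2:153649199-153649448 on the plus strand for Dnmt3b, chr10:78049592-78049841 on the plus strand for the second listed start of Dnmt3l, and chr3:133544391-133544640 on the minus strand for Tet2. All are written 5′ to 3′ along the gene.
Dnmt3b: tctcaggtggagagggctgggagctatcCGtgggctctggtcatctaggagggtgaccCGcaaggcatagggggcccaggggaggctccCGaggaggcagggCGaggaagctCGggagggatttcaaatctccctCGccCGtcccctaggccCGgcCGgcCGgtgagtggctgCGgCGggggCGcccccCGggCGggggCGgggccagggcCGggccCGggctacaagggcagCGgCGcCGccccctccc
Dnmt3l: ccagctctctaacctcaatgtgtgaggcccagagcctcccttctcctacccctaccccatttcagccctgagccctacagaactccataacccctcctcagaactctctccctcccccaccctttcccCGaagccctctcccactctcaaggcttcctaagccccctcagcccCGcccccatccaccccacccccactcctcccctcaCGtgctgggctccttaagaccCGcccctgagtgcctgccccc
Tet2: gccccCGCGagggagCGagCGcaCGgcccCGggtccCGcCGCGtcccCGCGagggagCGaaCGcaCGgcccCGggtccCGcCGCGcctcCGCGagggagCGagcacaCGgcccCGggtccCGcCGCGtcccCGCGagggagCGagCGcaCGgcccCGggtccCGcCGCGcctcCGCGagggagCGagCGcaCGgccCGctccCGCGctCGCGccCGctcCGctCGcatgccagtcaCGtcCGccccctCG
The Dnmt3b window held 21 CG dinucleotides, the Dnmt3l window 4 and the Tet2 window 51, where the median of 32851 windows of the same length was 6. The other 2 listed starts of Dnmt3l had 5 and 3. Both strands were also searched for 4 short motifs. The retinoid receptor hexamer AGGTCA, present in 14.0% of all windows, was found in none of these 3 windows, nor was the octamer ATGCAAAT, present in 1.6%, or CCAAT, present in 33.8%. Among the windows of the other members, AGGTCA occurred in 1 window each of Dnmt3a, Tet1 and Uhrf1, and CCAAT in windows of Dnmt1, Uhrf1 and Tet3. The E2F-like letters TTTNNCGC, present in 4.3% of all windows, occurred among the 8 genes in the windows of the maintenance pair. They matched 1 stretch, as 2 overlapping matches, in 1 of the 3 windows of Dnmt1, and 1 time in each of the 2 windows of Uhrf1. A match is a description of the letters and no evidence of binding, and no match says only that these letters are not in the window.

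Total counts ran from 17116084 to 22775275 per library, except in AGN D2.5 replicate 1 with 38120841, and each of the 8 genes had at least 246 reads in every library. Levels are given as CPM, the count scaled to a common TMM library total, and differences as log2 fold changes with their standard error (SE) from an edgeR quasi-likelihood fit of all 33 libraries. P-values were adjusted over all 17120 genes. Called means an adjusted p under 0.05. CD1530 D0.75 replicate 1 stood apart. Relative to its group mean, its genes with over 10 kb of exon were lower than its genes with under 3 kb by a median log2 difference of -0.36, where the other 32 libraries lay between -0.11 and 0.18. In bulk RNA, fewer cells that express a gene and less RNA per cell cannot be told apart.

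The label of the starting cells was checked against markers. In PM the 7 paraxial mesoderm markers summed to 48.0 ± 1.45 CPM per kb of exon (SD, n = 3), with Tbx6 at 9.56 ± 0.772 CPM and Msgn1 at 3.38 ± 0.607 CPM, whereas the 11 markers of pluripotent cells summed to 2661 ± 85.8 CPM per kb. Pou5f1 was at 701 ± 8.17 CPM and Nanog at 466 ± 7.61 CPM in PM. Hes7, an oscillating gene of the presomitic mesoderm, was at 0.573 ± 0.246 CPM. Of the 7 paraxial mesoderm markers, 4 were lower and 2 higher in CD1530 D4 than in PM (39.9% of all genes lower). In AGN D4, 5 were lower and 1 higher (40.4% of all genes lower). Yet the sum of the 7 was above PM at D2.5, at 105 ± 3.49 CPM per kb in CD1530 and 82.6 ± 4.26 in AGN. At D4 it was 57.4 ± 1.43 and 40.4 ± 0.951. The PM sums of the paraxial mesoderm and pluripotency markers are of different genes, so they neither bear out nor refute the label. PM is used here as the name of the labelled group, with no cell type implied. Retinoic acid receptor targets differed by ligand, with all 6 higher in CD1530 than in AGN at D4 (22.7% of all genes higher). They also rose from PM in AGN. Their sum was 20.3 ± 0.659 CPM in PM and, in AGN, 98.8 ± 1.16 at D0.75, 21.2 ± 1.49 at D2.5 and 39.1 ± 0.598 at D4. In AGN D4, 4 of the 6 were higher and 1 lower than in PM (41.6% of all genes higher). At D4 the 6 cartilage markers were all lower in CD1530 than in AGN, as were 4 of the 6 tendon markers (24.0% of all genes lower). The 6 tendon markers were all above PM in both conditions (43.3% of all genes higher in CD1530 and 41.6% in AGN). Markers of other cell types also differed between the ligands at D4, where 22.7% of all genes were higher in CD1530 and 24.0% lower. In CD1530, all 6 neural markers and 4 of 7 paraxial mesoderm markers were higher, while 4 of 6 endoderm markers were lower and 2 higher, 2 of 6 endothelial markers higher and 2 lower, and 1 of 5 measured muscle markers higher and 2 lower.

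**Figure D1:**
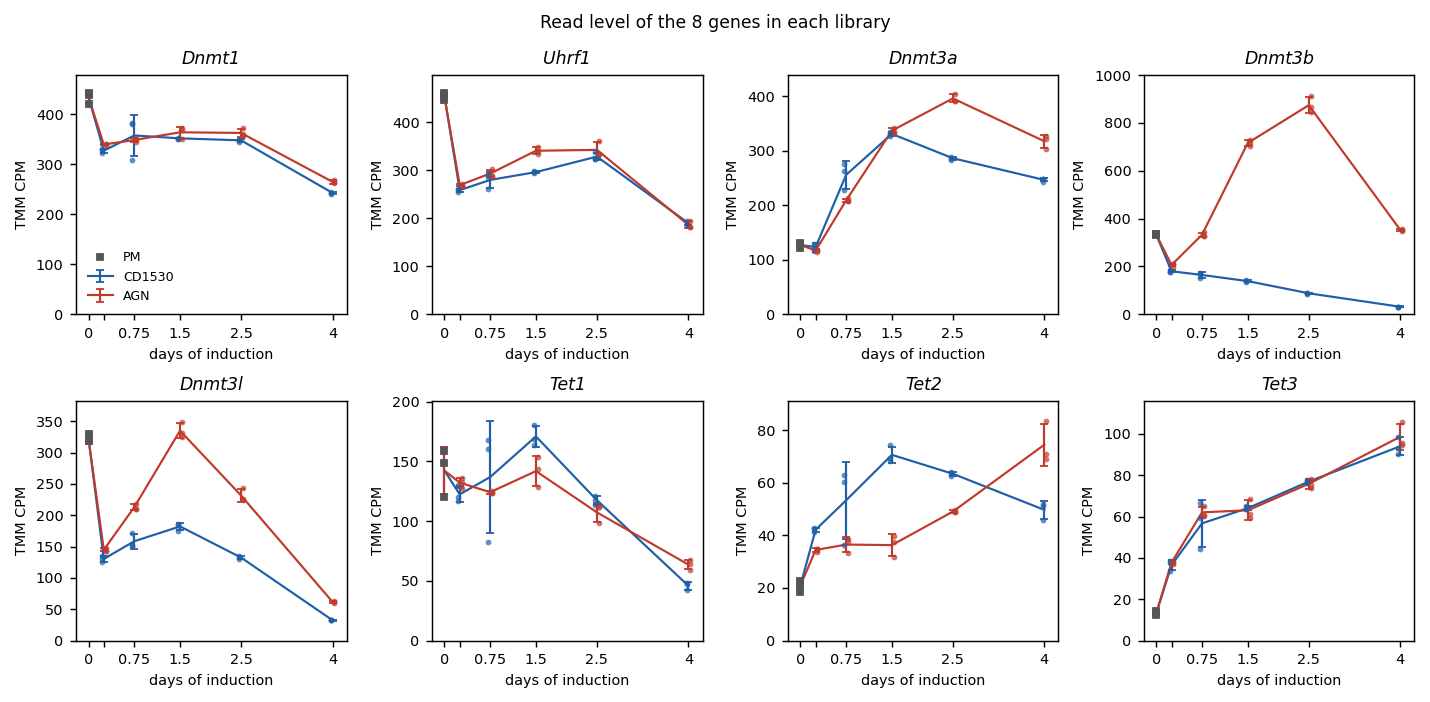
TMM-scaled CPM of the 8 genes against days of induction, with squares for the PM libraries, dots for the CD1530 (blue) and AGN (red) libraries, lines through group means and bars for the SD (n = 3). Dnmt3b separates the ligands most, Tet2 lines cross between D2.5 and D4, and Tet3 is lowest in PM and highest at D4 in both conditions.

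The maintenance genes Dnmt1 (chr9:20907209-20959888, minus strand, GRCm38) and Uhrf1 (chr17:56303321-56323486, plus strand) were highest in PM and fell within 0.25 days in both conditions. Dnmt1 read 443, 420.2 and 439 CPM in the PM libraries, 322, 328 and 330.4 in CD1530 and 338, 339.9 and 340.5 in AGN at D0.25. Uhrf1 read 461, 446 and 454 CPM in PM, 261, 259.6 and 255 in CD1530 and 268, 268 and 271 in AGN at D0.25. For both genes the PM libraries lay above all libraries of D0.25. The log2 change from PM was -0.41 ± 0.043 in CD1530 and -0.36 ± 0.043 in AGN for Dnmt1 (SE, edgeR adjusted p 6.19e-11 and 2.09e-09), and -0.81 ± 0.037 and -0.75 ± 0.037 for Uhrf1 (adjusted p 3.50e-22 and 4.37e-21).

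Between D0.25 and D2.5 the group means of Dnmt1 lay from 327 to 364 CPM and those of Uhrf1 from 258 to 342, all below PM, and both genes fell again to D4. From D2.5 to D4 the log2 change of Dnmt1 was -0.52 ± 0.044 in CD1530 and -0.45 ± 0.044 in AGN, and that of Uhrf1 was -0.79 ± 0.038 and -0.88 ± 0.038 (edgeR adjusted p between 1.16e-22 and 8.08e-12). At D4 Uhrf1 stood at 189.6 ± 4.46 CPM in CD1530 and 186 ± 7.30 CPM in AGN (SD, n = 3), a log2 change from PM of -1.26 ± 0.038 and -1.29 ± 0.038. Summed per kb of exon, the pair stood at 165 ± 3.41 CPM in PM and, at D4, at 77.4 ± 1.31 in CD1530 and 79.5 ± 2.23 in AGN.

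Between the ligands, Dnmt1 and Uhrf1 were each called at 1 of the 5 times. Dnmt1 was called at D4, with libraries at 241, 242 and 245 CPM in CD1530 and 269, 263 and 262 in AGN and a log2 difference of -0.13 ± 0.044 (adjusted p 0.0173). That call was lost when AGN replicate 1 (adjusted p 0.0632) or CD1530 replicate 1 (0.0508) was left out. Uhrf1 was called at D1.5, with libraries at 296, 298 and 294 in CD1530 and 339.6, 348 and 334 in AGN, which did not overlap, and a log2 difference of -0.20 ± 0.037 (adjusted p 3.48e-05). At D4 its difference was 0.028 ± 0.038, with a 95% interval of -0.047 to 0.10.

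Markers of DNA replication were, like this pair, highest in PM and lowest at D4. The 16 markers summed to 5351 ± 29.1 CPM in PM, 3467 ± 30.6 in CD1530 D0.25, 2578 ± 20.8 in CD1530 D4 and 3015 ± 47.6 in AGN D4. Of these 16, 15 were lower in CD1530 D4 than in PM (39.9% of all genes) and 14 lower and 1 higher in AGN D4 (40.4% of all genes lower). Between the ligands at D4, 9 of the 16 were lower and 1 higher in CD1530 (24.0% and 22.7% of all genes). At D2.5, 9 were lower and 0 higher (19.6% and 20.4% of all genes), while neither Dnmt1 nor Uhrf1 was called. The part of these markers in the change of Dnmt1 and Uhrf1 was not tested.

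Dnmt3b (chr2:153649450-153687730, plus strand), a de novo enzyme of early embryonic cells, split the ligands at every time. Its libraries stood at 334, 330.0 and 334 CPM in PM. In CD1530 they read 184, 177 and 178 at D0.25, 151, 168 and 174 at D0.75, 142, 139.8 and 134 at D1.5, 89.3, 84.7 and 88.7 at D2.5 and 32.2, 31.7 and 29.7 at D4. In AGN they read 199, 209 and 209.8 at D0.25, 327, 328 and 343 at D0.75, 716, 729.9 and 703 at D1.5, 911, 846 and 865 at D2.5 and 356, 348 and 353 at D4. The level fell at every step in CD1530, whereas in AGN it dropped by D0.25, climbed to D2.5 and fell back to D4, and the libraries of the ligands overlapped at no time.

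The log2 difference of CD1530 minus AGN for Dnmt3b was -0.20 ± 0.039 at D0.25, -1.02 ± 0.039 at D0.75, -2.37 ± 0.041 at D1.5, -3.32 ± 0.043 at D2.5 and -3.50 ± 0.046 at D4 (SE, edgeR adjusted p from 0.00216 down to 7.57e-41). At D4 AGN thus held 11.3 times the level of CD1530. These differences kept their direction and their call in every alternative that was run. Against PM, Dnmt3b fell in CD1530 to D4 with a log2 change of -3.41 ± 0.046, and in AGN it was 2.63 times PM at D2.5. In AGN at D4 it had returned close to PM, at a log2 change of 0.085 ± 0.039 (adjusted p 0.0422), a value that turned to -0.065 when libraries were scaled by their totals only, a scaling that moved the median of all genes by -0.15 in that comparison. This call was also lost in 5 of the 6 fits without 1 PM or AGN D4 library, with adjusted p from 0.0629 to 0.207, and held without AGN D4 replicate 2.

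Dnmt3l (chr10:78041947-78063622, plus strand), the stimulating partner, was lower in CD1530 than in AGN at every time, as Dnmt3b was, but its course over time was another. Its libraries were at 318, 329 and 319 CPM in PM. At D1.5 they read 186, 185 and 175 in CD1530 and 332, 325 and 348 in AGN, and at D4 32.2, 32.9 and 32.0 in CD1530 and 59.7, 63.5 and 61.8 in AGN. The ligands did not overlap at either time, AGN was the higher, and at D1.5 its libraries overlapped those of PM. The log2 difference of CD1530 minus AGN was -0.43 ± 0.041 at D0.75, -0.88 ± 0.041 at D1.5, -0.81 ± 0.042 at D2.5 and -0.93 ± 0.050 at D4 (edgeR adjusted p between 7.00e-21 and 8.32e-11). At D0.25 it was -0.15 ± 0.042 (adjusted p 0.0426), and this call was lost in 5 of the 6 fits that left out 1 of the compared libraries, with adjusted p from 0.0975 to 0.247, and held without CD1530 D0.25 replicate 1. In CD1530 Dnmt3l rose from D0.25 to D0.75 (0.28 ± 0.042, adjusted p 3.57e-07) and on to D1.5 (0.20 ± 0.041, adjusted p 0.000168), 2 steps in which Dnmt3b fell. In AGN it fell from D1.5 to D2.5 (-0.53 ± 0.040, adjusted p 2.30e-14), where Dnmt3b rose (0.29 ± 0.038, adjusted p 3.40e-08). Both conditions fell far below PM by D4, with log2 changes of -3.31 ± 0.048 in CD1530 and -2.38 ± 0.045 in AGN, and the drop from D2.5 to D4 alone was -2.03 ± 0.048 and -1.91 ± 0.045. Dnmt3l shares 67 bases of exon with Aire on the opposite strand, and whether counting used strand is not stated.

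Dnmt3a (chr12:3806007-3914443, plus strand), the other de novo enzyme, rose in both conditions after D0.25. Its libraries stood at 131, 128 and 122 CPM in PM and at 329.9, 334 and 328 in CD1530 and 335, 342 and 333 in AGN at D1.5, where the ligands overlapped. The log2 change from PM to D1.5 was 1.38 ± 0.045 and 1.40 ± 0.045 (adjusted p 1.72e-27 and 1.07e-27). The ligand difference had opposite signs before and after that time. At D0.75 CD1530, at 228, 263 and 276, lay above AGN, at 207, 212 and 207, by a log2 difference of 0.29 ± 0.044 (adjusted p 1.84e-06). At D2.5 CD1530, at 289, 287 and 283, lay below AGN, at 392, 391 and 404, by -0.47 (adjusted p 6.34e-12), and at D4 the difference was -0.37 ± 0.044 (adjusted p 3.13e-09). The counts are per gene and do not separate the long and short forms of Dnmt3a, and 133 bases of its exons overlap an antisense gene.

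The summed level of pluripotency markers did not keep the order of Dnmt3b between the ligands at every time, while their median difference had that order from D1.5 on. Per kb of exon the 11 markers summed to 1552 ± 146 CPM in CD1530 and 1288 ± 30.8 in AGN at D0.75, 1548 ± 4.34 and 1402 ± 46.2 at D1.5, and 949 ± 16.5 and 904 ± 7.73 at D2.5, while Dnmt3b was lower in CD1530 at all of these times. At D4 the sum was lower in CD1530, at 244 ± 7.04 and 359 ± 10.5. Not scaled by length, the sum was already lower in CD1530 at D2.5, with 1227 ± 18.5 and 1393 ± 18.1 CPM. Single markers went both ways. In CD1530 at D0.75, 5 of the 11 were higher and 2 lower (7.94% and 10.0% of all genes). At D1.5, 4 were higher and 6 lower (15.2% and 11.8%). At D2.5, 5 were higher and 6 lower (20.4% and 19.6%). At D4, 4 were higher and 6 lower (22.7% and 24.0%). The median log2 difference of the 11 was 0.10, -0.15, -0.33 and -0.49 at these 4 times. Over all genes it was -0.0071, 0.0078, 0.0013 and -0.019. Otx2, a transcription factor of primed pluripotent and anterior neural cells, read 3.97 ± 0.673 CPM in CD1530 and 78.8 ± 1.11 in AGN at D2.5, and Nanog read 133 ± 6.97 and 73.3 ± 2.19, the opposite order. Of the 6 endoderm markers, 3 were lower in CD1530 at D2.5 and 3 were not called (19.6% of all genes lower). Their sums at D2.5 were 113 ± 0.806 CPM in CD1530 and 223 ± 6.20 in AGN. Neural markers had the opposite order at D4, with sums of 78.7 ± 1.65 and 17.6 ± 1.09. The part of these lists in the Dnmt3b difference was not tested.

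**Figure D2:**
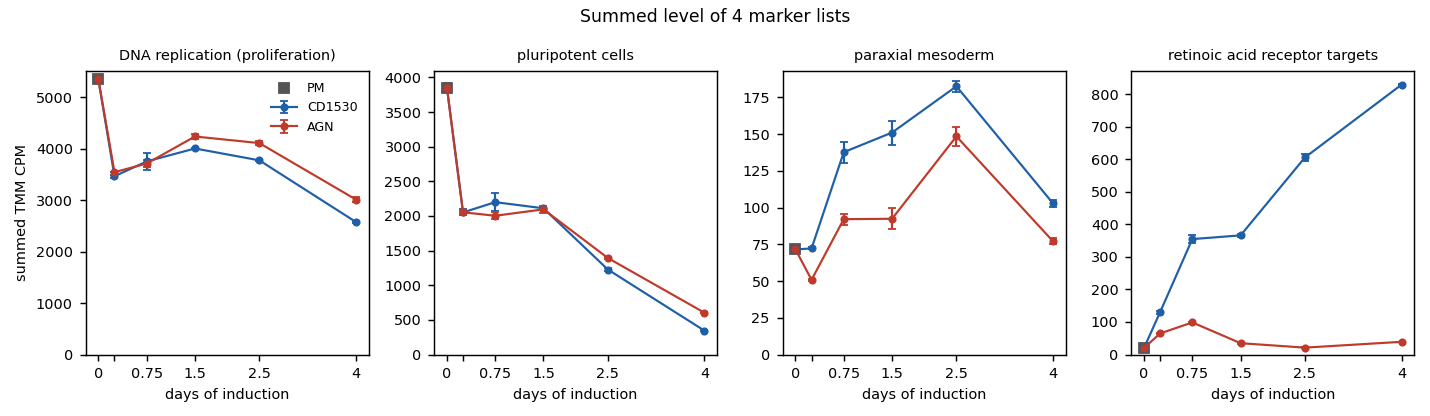
Summed TMM-scaled CPM of 4 marker lists against days of induction in CD1530 (blue), AGN (red) and PM (square), as mean with SD (n = 3). The lists are replication, pluripotency, paraxial mesoderm and retinoic acid receptor targets. The first 2 sums are highest in PM and lowest at D4, and the receptor target sum separates the ligands from D0.25 on.

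Tet1 (chr10:62804570-62908996, minus strand), the Tet enzyme best known from pluripotent cells, was not called against PM in either condition up to D1.5 and then fell in both. Its group means up to that time lay between 122 CPM in CD1530 D0.25 and 171 in CD1530 D1.5. Its PM libraries spread from 120.1 to 158 CPM. From D2.5 to D4 it went from 114, 117 and 121 to 46.9, 42.2 and 48.3 in CD1530 and from 112, 98.0 and 112 to 59.5, 63.9 and 67.2 in AGN, with no overlap between the times. The log2 change over this step was -1.36 ± 0.17 and -0.76 ± 0.16 (adjusted p 2.80e-07 and 0.000368). Before it, CD1530 lay above AGN without overlap, by 0.27 ± 0.15 at D1.5 and 0.13 ± 0.16 at D2.5. Neither was called with all libraries (edgeR adjusted p 0.216 and 0.560). Both were called in fits of the 6 compared libraries alone (adjusted p 0.0030 and 0.0140). At D4 CD1530 lay below AGN by a log2 difference of -0.47 ± 0.18 (adjusted p 0.0322), a call lost in 4 of the 6 fits without 1 of these libraries, with adjusted p from 0.0586 to 0.102, and held without AGN replicate 1 or CD1530 replicate 3.

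The ligand difference of Tet2 (chr3:133463679-133545139, minus strand), which unlike its relatives has lost its own CXXC domain, changed direction. Its PM libraries were at 22.8, 18.6 and 21.3 CPM, the lowest group. In CD1530 it read 42.3, 41.3 and 42.8 at D0.25, 68.4, 69.3 and 74.2 at D1.5, 62.4, 63.7 and 64.1 at D2.5 and 52.1, 46.0 and 51.0 at D4. In AGN it read 33.7, 34.9 and 34.6 at D0.25, 37.6, 39.6 and 31.7 at D1.5, 49.5, 48.9 and 48.7 at D2.5 and 69.0, 83.6 and 70.9 at D4. CD1530 was thus above AGN in all libraries of the first 3 of these times and below it in all libraries of D4. The log2 difference was 0.29 ± 0.13 at D0.25 (not called, adjusted p 0.384), 0.96 ± 0.13 at D1.5 (adjusted p 2.17e-06), 0.37 ± 0.12 at D2.5 (adjusted p 0.0208) and -0.58 ± 0.13 at D4 (adjusted p 0.000475). The change of this difference from D2.5 to D4, tested as an interaction, was -0.95 ± 0.18 (adjusted p 0.000231). The D2.5 call was lost without CD1530 D2.5 replicate 2 (adjusted p 0.0507) or replicate 3 (0.0510), and the D1.5 and D4 calls held in every fit. In a fit of the 6 compared libraries alone the D0.25 difference was called (adjusted p 0.000123). Reads on 43 bases of its exons can also come from an antisense gene.

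Tet3 (chr6:83362373-83459084, minus strand), the Tet enzyme of the zygote and of many differentiated cells, rose from PM with either ligand. Its libraries read 14.2, 12.3 and 13.3 CPM in PM, 33.7, 38.3 and 37.5 in CD1530 and 38.6, 37.0 and 37.6 in AGN at D0.25, and 90.1, 93.4 and 98.7 in CD1530 and 94.6, 95.5 and 106 in AGN at D4. The ligands overlapped at D4 while both lay far above PM. The log2 change from PM was 1.46 ± 0.11 and 1.51 ± 0.11 at D0.25 and 2.83 ± 0.10 and 2.90 ± 0.10 at D4 (adjusted p between 4.74e-21 and 6.83e-13). No ligand difference of Tet3 was called at any of the 5 times with all libraries, in edgeR or in DESeq2, and the lowest unadjusted edgeR p was 0.144 (D0.75). At D4 the difference was -0.070 ± 0.082 with a 95% interval of -0.23 to 0.091.

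At D0.75 the values of several members moved with the library that stood apart. Tet1 read 82.6, 160.3 and 168 CPM in CD1530 and 124, 126 and 123 in AGN, Tet2 read 36.5, 63.1 and 60.4 in CD1530 and 38.5, 37.6 and 33.4 in AGN, and Tet3 read 44.1, 66.7 and 59.4 in CD1530 and 60.7, 60.3 and 65.1 in AGN. In each of the 3 genes, and in Dnmt1 at 309, 382 and 381, CD1530 replicate 1 was the lowest of its group, as it was in Uhrf1, Dnmt3a and Dnmt3b. In Dnmt3l, at 172, 151 and 153, it was the highest, so that it adds to the rise of Dnmt3l from D0.25. The CD1530 D0.25 libraries of Dnmt3l, at 135, 130 and 126, lay below all of these. With all libraries Tet2 was called higher in CD1530 (0.54 ± 0.13, adjusted p 0.0036), and Tet1 (0.14 ± 0.15, adjusted p 0.604) and Dnmt1 (0.038 ± 0.043, adjusted p 0.622) were not called. Without that library the log2 difference was 0.75 in Tet2, 0.40 in Tet1 (adjusted p 0.00156) and 0.13 in Dnmt1 (adjusted p 0.000513), all called. That of Tet3 was -0.13 with all libraries and 0.024 without this one, not called in either fit, but -0.26 and called without CD1530 replicate 2 (adjusted p 0.0139). The Tet2 call was lost in a fit of the 6 compared libraries alone (adjusted p 0.115). The calls of Dnmt3a and Dnmt3b at D0.75 held in every fit without 1 of the 6 libraries, with log2 differences from 0.23 to 0.37 in Dnmt3a (0.37 without CD1530 replicate 1) and of -0.96 in Dnmt3b without that replicate. The Tet2 call also held in those 6 fits, with values from 0.41 to 0.75.

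**Figure D3:**
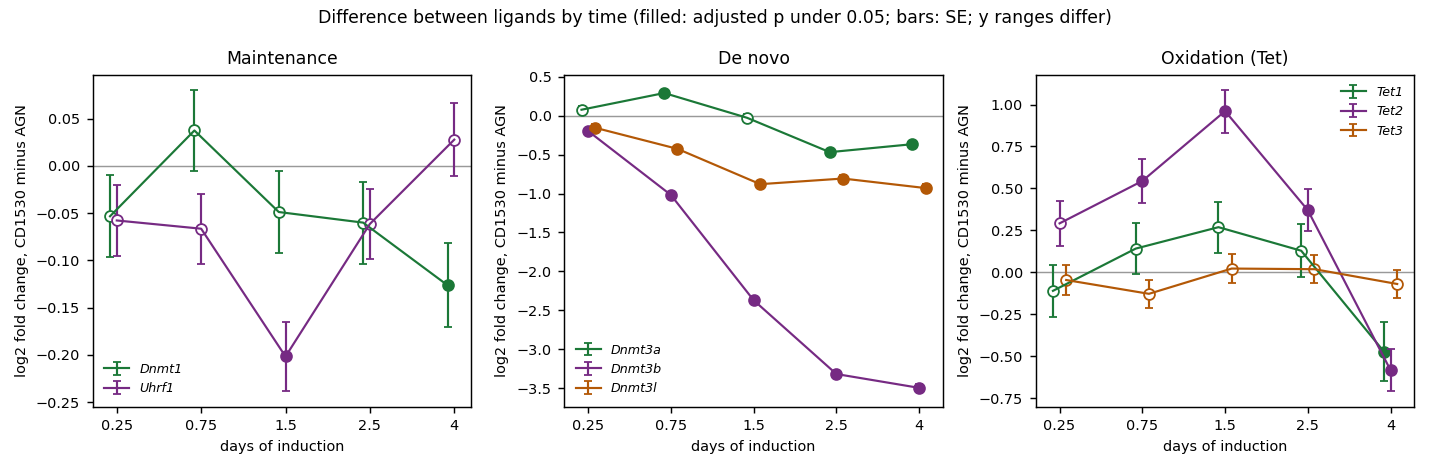
Log2 fold change of CD1530 minus AGN at each time for the maintenance, de novo and Tet genes, with bars for the SE and filled symbols for edgeR adjusted p under 0.05 (the y ranges differ between panels and times are evenly spaced). Dnmt3b reaches -3.50 at D4, Tet2 goes from 0.96 at D1.5 to -0.58 at D4, and Tet3 has no filled symbol.

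Counted over the 8 genes, the ligands differed in 2 at D0.25, both lower in CD1530, where 1.92% of all genes were called, 1.23% higher and 0.695% lower. At D0.75 the count was 4 (18.0% of all genes), with Dnmt3a and Tet2 higher (7.94%) and Dnmt3b and Dnmt3l lower (10.0%). It was 4 at D1.5 (26.9%), with Tet2 higher (15.2%) and Uhrf1, Dnmt3b and Dnmt3l lower (11.8%), and 4 at D2.5 (40.0%), with Tet2 higher (20.4%) and the 3 Dnmt3 genes lower (19.6%). At D4 it was 6 (46.6%), all lower in CD1530 (24.0% of all genes, beside 22.7% higher), namely Dnmt1, the 3 Dnmt3 genes, Tet1 and Tet2. The median log2 difference of the 8 genes at D4 was -0.42, beside -0.019 over all genes. The difference between ligands was unequal over the 5 times in 5 of the 8 genes, Uhrf1, Dnmt3a, Dnmt3b, Dnmt3l and Tet2, where 48.8% of all genes were called. Its change from D2.5 to D4 was called in Tet2 and in Dnmt3b (-0.18 ± 0.061, adjusted p 0.0259), where 26.8% of all genes were called. The count of 2 fell to 1 without AGN D2.5 replicate 2, AGN D4 replicate 1, CD1530 D2.5 replicate 1 or 3, or CD1530 D4 replicate 3, and the count at D0.25 fell to 1 in the 5 fits in which the Dnmt3l call was lost.

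Against PM, 6 of the 8 genes were called at D0.25 in CD1530 (67.8% of all genes, 34.5% higher and 33.3% lower) and 7 in AGN (68.1%, 35.0% higher and 33.1% lower). Dnmt1, Uhrf1, Dnmt3b and Dnmt3l were lower and Tet2 and Tet3 higher in both, and AGN also had lower Dnmt3a (-0.12 ± 0.046, adjusted p 0.016). The value of Dnmt3a in CD1530 was -0.047 ± 0.046, and its difference between the ligands at D0.25 was not called (0.077 ± 0.046, edgeR adjusted p 0.555). The count in AGN was 6 to 7 with a library left out and 6 to 7 in the other settings. Both comparisons share the PM libraries. At D4 all 8 were called in each condition. In CD1530 (83.2% of all genes called, 43.3% higher and 39.9% lower) Dnmt3a, Tet2 and Tet3 were higher than PM and the other 5 lower. In AGN (82.0%, 41.6% higher and 40.4% lower) Dnmt3b was also among the higher ones. The last step, from D2.5 to D4, moved all 8 in CD1530 (57.3% of all genes, 27.4% higher and 29.9% lower), of which Tet3 rose and 7 fell. It also moved all 8 in AGN (59.4%, 29.9% higher and 29.5% lower), where Tet2 and Tet3 rose and 6 fell.

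Compared per kb of exon, the makeup of each family shifted. Dnmt3b made up 89.5 ± 0.363% of Dnmt3a plus Dnmt3b in PM (SD, n = 3). In CD1530 this share went from 82.6 ± 1.12% at D0.25 to 57.7 ± 0.631% at D1.5 and 29.2 ± 0.972% at D4, and in AGN it was 87.4 ± 0.0715% at D1.5 and 78.4 ± 0.781% at D4. Per kb of exon, Dnmt3a was thus above Dnmt3b in CD1530 D4 and below it in AGN D4. Not scaled by length, the order was the same but the levels in AGN D4 were close. Dnmt3a and Dnmt3b stood at 246 and 31.2 CPM in CD1530 D4, and at 317 and 353 CPM in AGN D4. Shares and sums per kb rest on the exon length of each gene, 16.6 kb for Dnmt3a and 5.11 kb for Dnmt3b. The lengths of the transcripts present were not measured, and other lengths would change these values. The sum of Dnmt3a, Dnmt3b and Dnmt3l was 181 ± 1.72 CPM per kb in PM, 78.7 ± 1.16 in CD1530 and 272 ± 9.62 in AGN at D2.5, and 31.7 ± 0.299 and 109 ± 0.751 at D4.

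Among the Tet genes, Tet1 had the largest share in PM and Tet3 at D4 in both conditions. Tet1 made up 81.9 ± 0.841% of the 3 Tet genes per kb in PM, 57.9 ± 0.536% in CD1530 and 60.7 ± 0.811% in AGN at D1.5, and 25.7 ± 0.862% and 28.5 ± 0.657% at D4. The share of Tet3 was 7.10 ± 0.484% in PM and, at D4, 48.8 ± 1.91% in CD1530 and 40.9 ± 2.07% in AGN. The sum of the 3 genes was 11.2 ± 1.47 CPM per kb in PM, 19.1 ± 0.799 in CD1530 D1.5, its highest group, and 11.5 ± 0.507 and 14.4 ± 0.720 at D4.

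**Figure D4:**
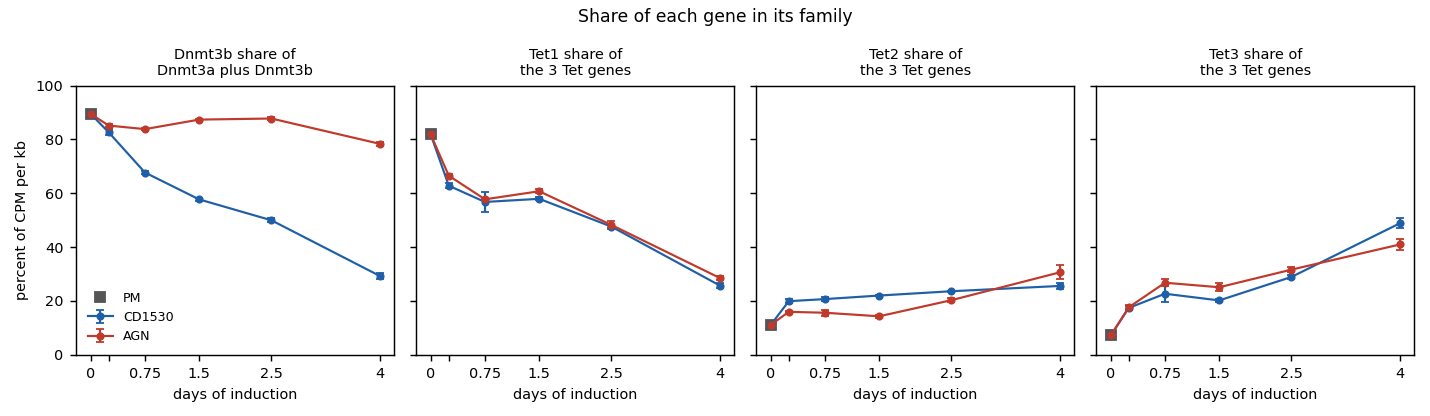
Share of Dnmt3b in Dnmt3a plus Dnmt3b and of each Tet gene in the 3 Tet genes, in percent of CPM per kb of exon, against days of induction in CD1530 (blue), AGN (red) and PM (square), as mean with SD (n = 3). The Dnmt3b share parts by ligand, to 29.2 ± 0.972% and 78.4 ± 0.781% at D4, while the Tet1 share falls in both.

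Ordered over the 11 groups, the genes differed in range. Dnmt3b spanned 28.0-fold between its highest group, AGN D2.5, and its lowest, CD1530 D4, Dnmt3l 10.3-fold and Tet3 7.45-fold. Tet1 spanned 3.73-fold, Tet2 3.57-fold, Dnmt3a 3.39-fold, Uhrf1 2.44-fold and Dnmt1 1.79-fold. In the order of Dnmt3b, 1 of the 10 pairs of neighbouring groups had overlapping libraries (AGN D0.75 and PM). Neighbours overlapped in 2 of 10 pairs for Dnmt3l, 4 for Dnmt3a, 5 for Dnmt1 and Tet1 and in 6 of 10 for Uhrf1, Tet2 and Tet3, so that in those genes many groups next to each other in level were not separated by their libraries.

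The genes whose group means ran most alike were looked up among 11294 genes with a mean of at least 5 CPM, by Pearson r of log2(CPM + 1) over the 11 groups, which share libraries and time. Dnmt1 ran most like Mcm2 (r = 0.988), a subunit of the replicative helicase, and Uhrf1 most like Sart3 (0.991) and Hells (0.975), a chromatin remodeler of DNA methylation. Dnmt3a ran most like Tmeff2 (0.964), Dnmt3b like Pim2 (0.967), Dnmt3l like Dusp27 (0.977) and Tet1 like Pecam1 (0.969). Tet2 ran most like Slc43a1 (0.955) and Tet3 like Pxdn (0.995).

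Other genes of the pathway were also counted. Of 37 genes that read methylation, excise oxidized bases, help to maintain or target methylation, supply methyl groups or act with the Tet enzymes, 36 were in the table. Between the ligands at D4, 7 were higher and 12 lower in CD1530, in all 52.8% of the 36, where 46.6% of all genes were called, 22.7% higher and 24.0% lower. The methyl-CpG readers had 4 higher and 0 lower of 8, the excision list 3 higher and 1 lower of 8, the list of maintenance and targeting cofactors 0 higher and 3 lower of 8, the methyl donor list 0 higher and 4 lower of 6, and the Tet partner list 0 higher and 4 lower of 6.

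Among the excision genes, Gadd45a and Gadd45g, stress-inducible genes linked to active demethylation, were higher in CD1530. For Gadd45a CD1530 had 48.3 ± 2.28 CPM and AGN 28.9 ± 0.300 (log2 difference 0.74 ± 0.071, adjusted p 1.04e-11), and for Gadd45g the values were 57.4 ± 1.19 and 35.4 ± 0.796 (0.70 ± 0.070, adjusted p 4.52e-11). Smug1, a uracil-DNA glycosylase that can also act on 5-hydroxymethyluracil, differed by 0.54 ± 0.089. Tdg, the glycosylase that removes the bases made by Tet enzymes, was not called and differed by 0.10 ± 0.044 (adjusted p 0.0727).

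Among the Tet partners, Cxxc4, a CXXC-domain protein related to the DNA-binding part of Tet2, rose most from PM of the 36 genes. From 1.36 ± 0.278 CPM in PM its log2 change was 5.20 ± 0.13 in CD1530 D4 and 5.81 ± 0.12 in AGN D4, and the ligand difference was -0.61 ± 0.071 (adjusted p 1.87e-09). Its relative Cxxc5 was at 123 ± 3.73 in CD1530 and 163 ± 4.53 in AGN at D4, a log2 difference of -0.41 ± 0.036 (adjusted p 7.49e-13). Tet2 was also lower in CD1530 at D4. At D1.5, when Tet2 was higher in CD1530, Cxxc4 and Cxxc5 differed by -0.057 ± 0.075 and 0.037 ± 0.035, not called.

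The cofactors of maintenance and targeting were lower than PM as a list. All 8 were lower than PM at D4 in CD1530 and in AGN, with a median log2 change of -1.47 and -1.35 beside 0.043 and -0.0025 over all genes, of which 39.9% and 40.4% were lower. Dppa3, which protects the zygotic genome from demethylation, had 119 ± 5.85 CPM in PM, 3.03 ± 0.415 in CD1530 and 4.32 ± 0.661 in AGN. Cdca7, which brings Hells to chromatin, went from 196 ± 1.04 to 59.3 ± 0.525 and 60.1 ± 3.25, and Hells itself changed by -1.56 ± 0.041 and -1.52 ± 0.042. Between the ligands at D2.5, CD1530 had the lower level in all 8, where 19.6% of all genes were lower, from -0.65 in Dppa3 to -0.16 in Ehmt2, the histone methyltransferase G9a. Of the 16 replication markers, 9 were also lower in CD1530 at D2.5, and their part was not tested.

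The methyl donor list held Shmt1, a cytosolic enzyme of one-carbon metabolism, which had 167 ± 2.63 CPM in PM and, at D4, 24.9 ± 0.542 in CD1530 and 27.8 ± 3.16 in AGN. Of its 6 measured genes 5 were lower than PM and 1 higher in each condition, where 39.9% of all genes were lower in CD1530 and 40.4% in AGN. Of the methyl-CpG readers 6 of 8 were higher and 1 lower than PM in CD1530 D4, and 4 were higher and 2 lower in AGN D4. Of all genes, 83.2% were called in CD1530 (43.3% higher) and 82.0% in AGN (41.6% higher). The share of readers called in either direction was near that of all genes, whereas the share higher in CD1530 was above it. The median log2 change of the readers was 0.44 in CD1530 and 0.25 in AGN, beside 0.043 and -0.0025 over all genes. Zbtb4, a zinc finger reader, had 8.92 ± 0.810 CPM in PM, 24.9 ± 0.839 in CD1530 and 28.3 ± 0.539 in AGN, and Mbd2 rose by 1.00 ± 0.061 and 0.90 ± 0.062 on the log2 scale.

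**Figure D5:**
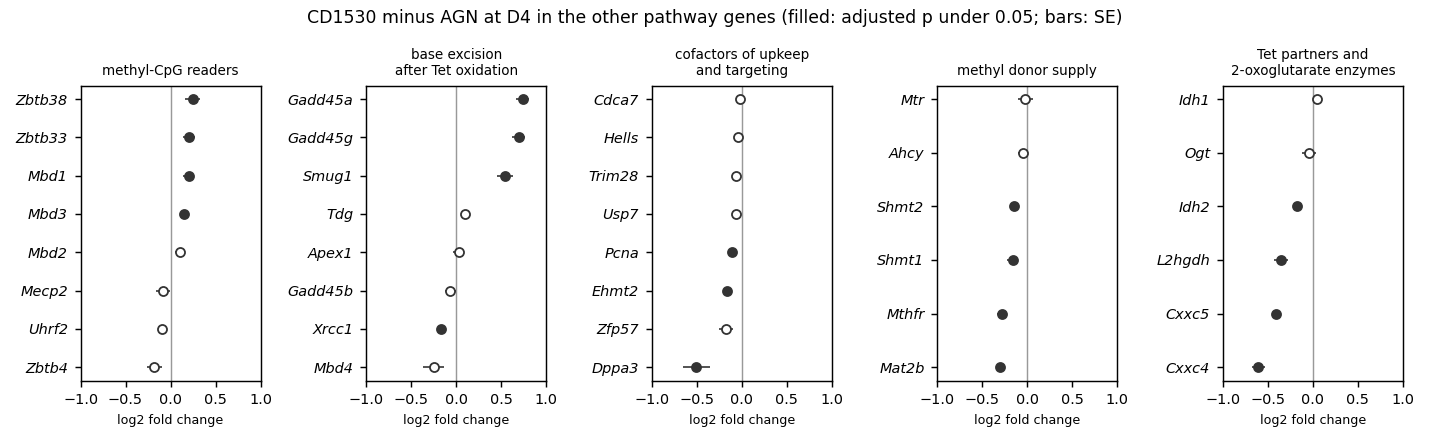
Log2 fold change of CD1530 minus AGN at D4 for the 36 measured pathway genes in 5 lists, with bars for the SE and filled symbols for edgeR adjusted p under 0.05. Gadd45a, Gadd45g and Smug1 lie to the right, at 0.74, 0.70 and 0.54, and Cxxc4 and Dppa3 to the left, at -0.61 and -0.51.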

How the data were processed

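RNA-seq of 33 libraries in 11 groups of 3 was used. The members and gene lists were chosen with earlier results of these data known. The authors deposited raw counts per gene in 1 table. According to the methods, the authors aligned reads to GRCm38 with STAR and counted them with featureCounts. Which annotation release they used, whether strand was read, and how multi-mapping reads were treated is not given in the sources used here. All 17120 genes passed edgeR's filter on low counts and were fitted over all 33 libraries with edgeR 4.0.16 (R 4.3.3, limma 3.58.1), with TMM scaling, a robust quasi-likelihood fit and 1 mean per group. P-values are two-sided, Benjamini-Hochberg adjusted over all genes and called under 0.05, and 95% intervals are approximate. The common biological coefficient of variation was 4.68%. Exon lengths came from GENCODE M21 (GRCm38), to which all 17120 gene IDs matched. Alternatives were DESeq2 1.42.0, its size factors in edgeR, library size alone, no filter, 1 CPM in 3 libraries, a replicate block, the 6 compared libraries alone, and 33 fits that each left out 1 library. Pathway genes were named by the largest called changes per comparison among genes above a minimum mean count, and genes outside that rule were chosen after their values were seen. The script was tested on simulated data. The median total was 19899242 counts a library.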

Additional observations from a re-analysis of the deposited data

Results flagged for a closer look

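Each of these results came up because the effect of the ligand varied with time, by a test of the difference itself in the edgeR fit. Over the 5 times, the adjusted p of the interaction was 8.65e-37 for Dnmt3b, 1.06e-14 for Dnmt3l, 1.35e-13 for Dnmt3a, 2.78e-06 for Tet2 and 0.00821 for Uhrf1. Dnmt3a and Tet2 are the genes among these whose called differences had both signs, Dnmt3a going from 0.29 at D0.75 to -0.47 at D2.5 and Tet2 from 0.96 at D1.5 to -0.58 at D4. From D2.5 to D4 the log2 difference changed by -0.95 in Tet2 and by -0.18 in Dnmt3b.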

How the results depend on the processing

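The alternatives reversed or ended few results. Of the values that reversed, Dnmt3b in AGN D4 against PM, at -0.065 with library size alone, was the one called with all libraries and TMM. Between the ligands, the fits that left out a library gave Dnmt1 at D0.75 from -0.013 and -0.011 (without CD1530 replicate 2 or 3) to 0.13, Tet1 at D0.75 from -0.032 (without CD1530 replicate 3) to 0.40, and Tet3 from -0.082 to 0.0059 at D0.25 and from -0.26 to 0.024 at D0.75 (highest without CD1530 replicate 1) and from -0.018 (without AGN replicate 1) to 0.088 at D1.5. The count of called members at D0.25 was 1 with library size alone and 1 to 2 with a library left out, that of CD1530 from D0.25 to D0.75 was 4 to 7 (4 without CD1530 D0.75 replicate 3), and that of the interaction from D2.5 to D4 was 1 to 2. The causes were not tested. With library size alone the D4 call of Dnmt1 was lost as well (adjusted p 0.0823), and the 6-library fits also called Tet1 at D1.5 (0.26, adjusted p 0.0030) and D2.5 (0.12, adjusted p 0.0140). With the replicate number as a block, 2, 4, 4, 4 and 6 members were called between the ligands from D0.25 to D4, and no call count left its range. The numbers did not pair the samples, since 18 of 165 same-number pairs had correlated deviations over 0.1, with a median of 0.0034 beside 0.0032 for other pairs, and 10 of 33 libraries correlated best with their own number. Library size alone moved the median log2 change of all genes by -0.11 in CD1530 and -0.15 in AGN at D4 against PM. The lowest count of any member in a library was 246.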
